A study of Mus musculus with 6 samples.

Results

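The 10 genes described here encode the core of the transforming growth factor beta (TGF-beta) pathway in T cells, from the ligand to the nucleus. They are the ligand Tgfb1, the receptors Tgfbr1 and Tgfbr2, the signal transducers Smad2, Smad3 and Smad4, the inhibitor Smad7 and the corepressors Ski, Skil and Tgif1. They were chosen by symbol, and all 10 were found among 55335 genes of the count table. Their transcripts were measured by bulk RNA-seq in CD4 T cells from the lamina propria of the inflamed mouse colon. Donor cells were naive splenic CD4 T cells of TcfGFP mice, which carry a GFP reporter for Tcf7, and their transfer into Rag1 KO hosts induced colitis. Hosts of this genotype make no T or B cells of their own but keep their innate immune cells. Cells of both groups thus shared the reporter, the host genotype and the colitis, and differed in the sort gate. The 3 GFP-positive libraries are labelled TCF7+ and stem-like, and the 3 GFP-negative libraries are labelled TCF7- and effector. The sources used here do not give age, time after transfer or how the reporter allele was built. They do not tell whether each replicate was a different mouse, and the p-values cover only the variation among these libraries, which may be technical.

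TGF-beta is secreted in a latent form and, once activated, binds the type II receptor TGFBR2, which phosphorylates the type I receptor TGFBR1. TGFBR1 phosphorylates SMAD2 and SMAD3, which enter the nucleus with SMAD4, while SMAD7 blocks the receptor and SKI, SKIL and TGIF1 hold SMAD target genes down. In CD4 T cells the pathway restrains Th1 effector function, is needed for induced regulatory T cells and Th17 cells, and induces the gut-retention integrin CD103, and T cells that lack TGFBR2 cause inflammation in mice.

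Total counts per library ranged from 4309500 to 7462076, and 3 counts of a gene equal 0.430 to 0.690 CPM (counts per 1000000 counts, with library totals scaled by TMM factors). The 9 T cell markers, Cd3e and Cd4 among them, were detected in every library and held 0.589% to 0.835% of counts. Tcf7 itself stood at 71.3 to 140.5 CPM among GFP-negative and 140.8 to 237.4 CPM in GFP-positive libraries, and was not called by edgeR's quasi-likelihood test (log2 fold change 0.75 ± 0.26 SE, adjusted p = 0.367). GFP-positive replicate 3 stood apart: 14 of 14 myeloid markers were highest there and held 0.817% of its counts, against 0.0280% to 0.0360% in the other 5 libraries. Antigen-presenting cell markers held 0.659% of its counts against 0.0183% to 0.0434%, and 6 of 8 were highest there. Epithelial markers held 0.0350% against 0.00235% to 0.00683%, with 6 of 7 highest there. The list of stromal and endothelial markers held 0.0390% against 0.00424% to 0.00845%. The 5 of its 9 genes highest there were the stromal markers Col1a1, Col1a2, Col3a1, Dcn and Pdgfra. Endothelial markers did not rise: Pecam1 had 65.3 CPM there, inside the range of the other 5 libraries, and Kdr, Cdh5 and Vwf had 0. Leaving that library out turned the log2 fold changes of Tgfbr2, Smad4 and Tgif1 negative, and the values without it are given beside each.

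The promoter windows of the 2 receptors and of Tgif1 are shown first, because these genes lie toward the ends of the range of expression: Tgif1 and Tgfbr2 had the highest mean TPM of the 10 genes, and Tgfbr1 was at the low end with Smad4, from which it did not differ beyond their spread. RefSeq windows (build GRCm38.p6, 250 bases before to 50 after a transcript start) matched 6 of the 10 genes, with 11 windows. They are written 5′ to 3′ on the strand of the gene, and capitals mark matches to the motifs listed after them. The Tgfbr1 window, the outermost of its 2, is chr4:47352972-47353271 on the plus strand, the Tgfbr2 window chr9:116175314-116175613 on the minus strand and the Tgif1 window, the outermost of its 5, chr17:70853483-70853782 on the minus strand.
Tgfbr1: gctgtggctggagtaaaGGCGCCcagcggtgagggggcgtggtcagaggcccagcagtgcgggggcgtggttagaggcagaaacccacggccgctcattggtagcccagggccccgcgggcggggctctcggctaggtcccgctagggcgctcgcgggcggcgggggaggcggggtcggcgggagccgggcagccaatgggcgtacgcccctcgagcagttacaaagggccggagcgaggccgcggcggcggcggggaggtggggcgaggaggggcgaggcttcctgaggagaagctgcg
Tgfbr2: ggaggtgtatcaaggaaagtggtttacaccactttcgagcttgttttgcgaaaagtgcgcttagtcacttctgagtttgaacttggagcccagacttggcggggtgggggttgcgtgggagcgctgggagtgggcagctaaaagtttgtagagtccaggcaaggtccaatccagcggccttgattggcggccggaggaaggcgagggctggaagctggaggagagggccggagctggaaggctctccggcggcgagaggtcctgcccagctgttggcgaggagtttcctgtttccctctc
Tgif1: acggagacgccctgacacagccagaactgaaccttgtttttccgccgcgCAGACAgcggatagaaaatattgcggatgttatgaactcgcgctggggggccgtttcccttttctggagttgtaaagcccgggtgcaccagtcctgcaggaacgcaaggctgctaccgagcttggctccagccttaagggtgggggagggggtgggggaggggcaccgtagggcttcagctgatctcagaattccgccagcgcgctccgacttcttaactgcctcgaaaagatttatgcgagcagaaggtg
The motifs searched on both strands were the SMAD palindrome GTCTAGAC, the CAGA box CAGACA, the GC-rich SMAD element GGCGCC, the TCF/LEF core CTTTGA, the TGIF core CTGTCA and the AP-1 site TGACTCA. No 2 matches overlapped in the windows shown. The Tgfbr1 window held 1 GGCGCC, which 11.9% of 32851 promoter windows of the same length hold. The Tgif1 window held 1 CAGACA, which 21.04% hold. The other window of Tgfbr1, farther into the gene (chr4:47385966-47386265), differed from the one shown, with 1 CAGACA, no GGCGCC, 52.0% G or C and 3 CpG. None of the 6 motifs was in the Tgfbr2 window; the palindrome, the TGIF core and the AP-1 site are held by 0.213%, 19.2% and 5.202% of all windows. The Tgfbr1 window was also the most GC-rich of the 3, with 74.7% G or C and 34 CpG dinucleotides. The Tgfbr2 window had 59.0% and 15, and the Tgif1 window 58.0% and 20, where the median over all windows is 7 CpG. The TCF/LEF core, held by 16.0% of all windows, was absent from the 3 windows shown and present in 2 of the 11, both of them windows of Tgif1. The TGIF core was likewise absent from the 3 shown and present in 2 of the 11, both windows of Tgif1. The palindrome and the AP-1 site were in 0 of the 11. These matches are letters in a window and were not tested for binding.

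All 10 genes were expressed in every library and passed the expression filter, and none of them differed between the gates by edgeR's quasi-likelihood test. Of the 10, 0 passed an adjusted p of 0.05 and 0 had an unadjusted p below 0.05, where 0.108% and 10.3% of the 11074 tested genes did. DESeq2 and limma-voom each called 0 of them as well, against 1.33% and 0.0452% of the genes they tested. The smallest adjusted p was 0.585, for Tgfb1. Log2 fold changes, given as GFP-positive minus GFP-negative, were positive for 8 genes and negative for 2 (5 and 5 in limma fits on TPM, in which Tgfbr2, Smad2 and Skil turned negative), with a median of 0.05, and 51.6% of all tested genes were positive with a median of 0.02. The median absolute log2 fold change was 0.21 among the 10 and 0.27 over all tested genes. In bulk samples fewer cells that express a gene and less RNA per cell cannot be told apart.

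**Figure D1:**
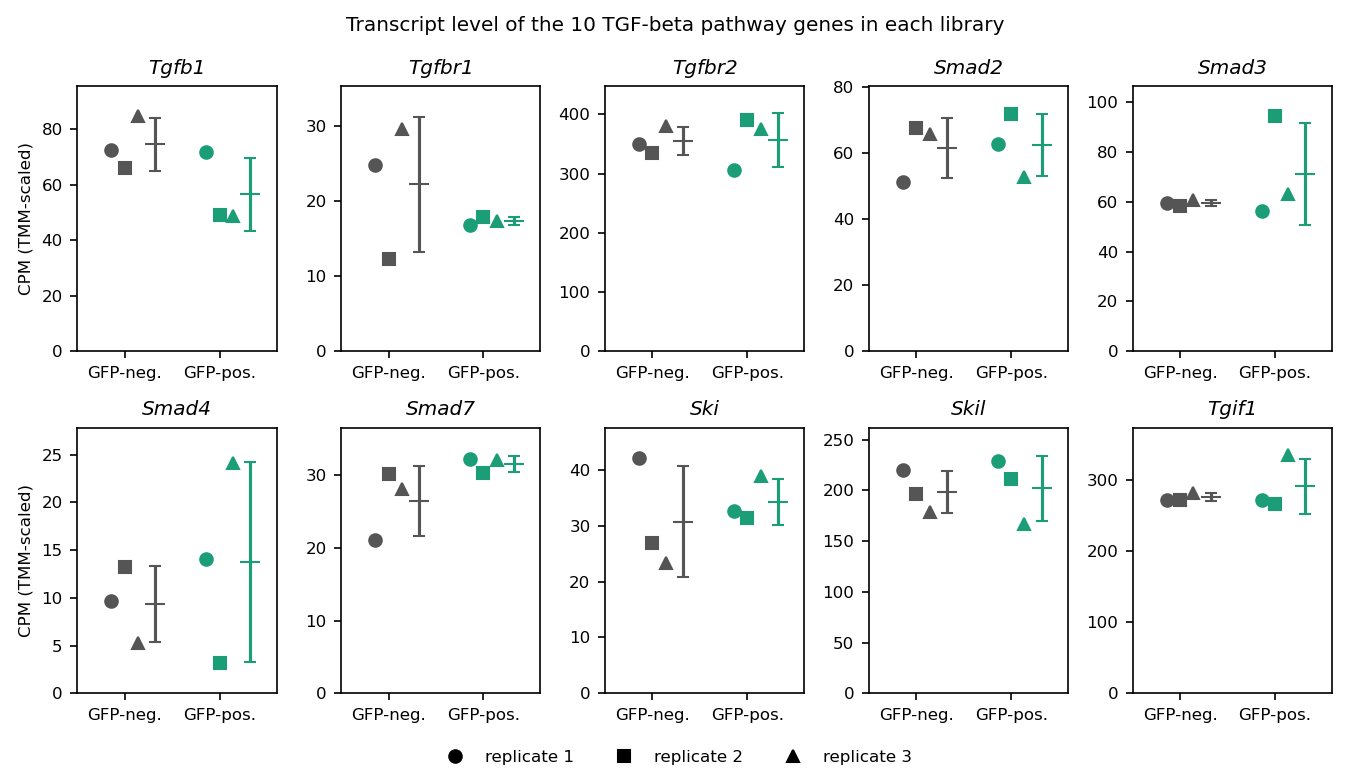
CPM of each of the 10 genes (vertical axes, each from 0) in the 3 GFP-negative and 3 GFP-positive libraries; points are libraries, shaped by replicate number, and bars are the mean ± SD of 3. The groups overlap for 9 genes, and Smad7 is separated by the gap between 30.2 and 30.3 CPM.

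Tgfb1 (ENSMUSG00000002603.15, GENCODE M21 on mm10, chromosome 7, 25687002 to 25705077, plus strand), the ligand that T cells themselves secrete, was measured at 72.7, 66.2 and 84.9 CPM in replicates 1 to 3 of the GFP-negative gate. In replicates 1 to 3 of the GFP-positive gate it was at 71.9, 49.2 and 48.9 CPM. Replicates 2 and 3 lay below every GFP-negative library, while replicate 1 lay inside the GFP-negative range, so the groups overlapped. The means were 56.7 ± 13.2 and 74.6 ± 9.49 CPM (SD, n = 3 each). The log2 fold change was -0.40 ± 0.21 (SE; 95% interval -0.86 to 0.07; edgeR adjusted p = 0.585), the smallest unadjusted p of the 10 (0.0870 by edgeR over all genes). Without GFP-positive replicate 1 the log2 fold change was -0.61, and its edgeR adjusted p of 0.353 was the lowest of any gene of the 10 under any setting. Leaving out GFP-positive replicate 3 instead, the library with the other-cell markers, gave -0.29 (edgeR adjusted p = 0.69).

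The receptor transcripts were present in very unequal amounts, and receptor protein was not measured. On the per-length scale of TPM, in which each library's transcripts sum to 1000000, Tgfbr2 had 111.9 to 134.0 TPM over the 6 libraries and Tgfbr1 5.63 to 13.0 TPM. The Tgfbr2 level was 11.3, 21.7 and 10.2 times that of Tgfbr1 in GFP-negative replicates 1 to 3, and 14.5, 17.4 and 17.3 times among GFP-positive replicates 1 to 3. The type II receptor transcript, which encodes the ligand-binding kinase, thus exceeded that of the signalling type I kinase in 6 of 6 libraries. The log2 ratio of Tgfbr1 to Tgfbr2 differed between the gates by -0.27, which is within the GFP-negative SD of 0.59 (p = 0.4 by a two-sided exact permutation of libraries, 0.833 after adjustment over 5 ratios; 3 against 3 libraries allow no p below 0.1).

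Tgfbr2 (ENSMUSG00000032440.13, chromosome 9, 116084293 to 116175360, minus strand) had 349.9, 334.3 and 380.0 CPM among GFP-negative and 305.7, 389.9 and 376.1 CPM among GFP-positive replicates 1 to 3. GFP-positive cells held both the lowest and the highest value, and the log2 fold change was 0.01 ± 0.14 (SE; edgeR adjusted p = 0.99), which turned to -0.022 without GFP-positive replicate 3. Its 95% interval spans folds of 0.811 to 1.25, among the narrowest of the 10 genes. Tgfbr1 (ENSMUSG00000007613.15, chromosome 4, 47353222 to 47414931, plus strand) had 24.8, 12.3 and 29.6 CPM in GFP-negative libraries, a coefficient of variation (CV) of 40.2%. In GFP-positive replicates 1 to 3 it had 16.8, 17.9 and 17.4 CPM, a CV of 3.26% where counting error alone gives 10.2%. All 3 GFP-positive values fell inside the GFP-negative range. The log2 fold change of Tgfbr1 was -0.36 ± 0.36 (SE; edgeR adjusted p = 0.797), and it was -0.65 when GFP-negative replicate 2 was left out and -0.09 when GFP-negative replicate 3 was.

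Both receptor-regulated SMADs were present, with Smad3 above Smad2 per length. The ratio of Smad3 to Smad2 in TPM was 1.84, 1.37 and 1.45 among GFP-negative and 1.42, 2.08 and 1.89 among GFP-positive replicates 1 to 3, above 1 in 6 of 6 libraries. The mean log2 ratio was 0.20 higher in GFP-positive libraries (exact permutation p = 0.3, 0.833 after adjustment over 5 ratios). Smad3 (ENSMUSG00000032402.12, chromosome 9, 63646767 to 63757994, minus strand) encodes a SMAD that binds DNA directly, as SMAD4 also does. It had 59.3, 58.4 and 60.5 CPM in GFP-negative libraries and 56.1, 94.5 and 63.1 CPM in GFP-positive ones. GFP-positive replicate 2 stood above all others, and the remaining 5 libraries lay within 56.1 to 63.1 CPM. The log2 fold change of Smad3 was 0.26 ± 0.22 (SE; edgeR adjusted p = 0.757) with all libraries and 0.0060 without GFP-positive replicate 2. Smad2 (ENSMUSG00000024563.16, chromosome 18, 76241580 to 76310963, plus strand) had 51.2, 67.8 and 66.0 CPM among GFP-negative and 62.7, 72.0 and 52.9 CPM in GFP-positive libraries, with overlapping groups. Its log2 fold change was 0.02 ± 0.21 (SE; edgeR adjusted p = 0.988).

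Smad4 (ENSMUSG00000024515.13, chromosome 18, 73639009 to 73703780, minus strand), the shared partner of SMAD2 and SMAD3, was the most variable of the 10 genes. It stood at 9.69, 13.2 and 5.26 CPM among GFP-negative and at 14.03, 3.22 and 24.1 CPM among GFP-positive replicates 1 to 3. The highest and the lowest library were both GFP-positive and lay 7.49-fold apart, where the other 9 genes spanned 1.26-fold to 2.41-fold. The counts behind these values ran from 14 to 168. In GFP-positive cells the CV of Smad4 was 75.8% where counting error alone gives 17.3%. The log2 fold change was 0.56 ± 0.62 (SE; 95% interval -0.79 to 1.92; edgeR adjusted p = 0.819), and folds from 0.578 to 3.78 lay inside the interval, the widest of the 10. Without GFP-positive replicate 3, the library with the myeloid, stromal and epithelial transcripts, it turned to -0.10. Without GFP-positive replicate 2 it was 1.02. The part of the other cell types in the Smad4 value of replicate 3 was not tested.

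Smad7 (ENSMUSG00000025880.11, chromosome 18, 75367529 to 75395935, plus strand), the inhibitory SMAD that TGF-beta induces as a feedback, was the only one of the 10 genes whose CPM values did not overlap between the gates. It had 21.1, 30.2 and 28.1 CPM among GFP-negative and 32.2, 30.3 and 32.1 CPM among GFP-positive replicates 1 to 3. The gap lay between 30.2 and 30.3 CPM, and in TPM the groups overlapped. Over all tested genes 16.0% did not overlap, so 1 of 10 is no more than that background. The log2 fold change of Smad7 was 0.25 ± 0.25 (SE; edgeR adjusted p = 0.797), and it remained positive under each of 16 alternative settings. The ratio of Smad7 to Smad3 in TPM was 0.437, 0.634 and 0.569 among GFP-negative and 0.704, 0.394 and 0.624 in GFP-positive libraries (exact permutation p = 0.9, 0.9 after adjustment over 5 ratios). Smad7 thus lay below Smad3 in 6 of 6 libraries.

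The corepressors spanned the range from the most abundant of the 10 genes to one of the less abundant. Tgif1 (ENSMUSG00000047407.17, chromosome 17, 70844205 to 70853546, minus strand), a homeodomain corepressor of SMAD2 and SMAD3, had 271.8, 272.0 and 281.6 CPM in GFP-negative libraries. In GFP-positive libraries it had 271.2, 265.8 and 334.5 CPM, so that 5 of 6 libraries lay within 265.8 to 281.6 CPM and replicate 3 stood above them. The log2 fold change of Tgif1 was 0.08 ± 0.14 (SE; edgeR adjusted p = 0.896), with a 95% interval of folds from 0.855 to 1.30. It was -0.03 without GFP-positive replicate 3, whose other-cell markers are given above; their part in the Tgif1 value was not tested.

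Skil (ENSMUSG00000027660.16, chromosome 3, 31095058 to 31122577, plus strand) encodes SnoN, a SMAD corepressor that TGF-beta signalling first degrades and later induces. It had 219.6, 196.0 and 178.5 CPM among GFP-negative and 228.8, 211.3 and 166.7 CPM among GFP-positive replicates 1 to 3, and the groups overlapped widely. Its log2 fold change was 0.03 ± 0.16 (SE; edgeR adjusted p = 0.976), with folds of 0.806 to 1.29 inside the 95% interval. Ski (ENSMUSG00000029050.15, chromosome 4, 155154075 to 155222592, minus strand), the founding member of the same family, had 42.1, 26.8 and 23.2 CPM among GFP-negative and 32.6, 31.3 and 38.9 CPM in GFP-positive libraries. All GFP-positive values of Ski lay inside the GFP-negative range, and the log2 fold change was 0.16 ± 0.28 (SE; edgeR adjusted p = 0.895). Leaving out GFP-negative replicate 1, the highest library, gave 0.45, and leaving out GFP-negative replicate 3 gave -0.0052.

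Per length, Skil exceeded Ski in 6 of 6 libraries. The ratio in TPM was 2.996, 4.19 and 4.41 among GFP-negative and 4.03, 3.88 and 2.46 among GFP-positive replicates 1 to 3 (exact permutation p = 0.5, 0.833 after adjustment over 5 ratios). The ratio of Tgif1 to Ski was 6.39, 10.02 and 11.98 among GFP-negative and 8.24, 8.40 and 8.51 in GFP-positive libraries (exact permutation p = 0.7, 0.875 after adjustment over 5 ratios). The 3 GFP-positive values of the Tgif1 to Ski ratio lay close together and inside the GFP-negative range.

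**Figure D2:**
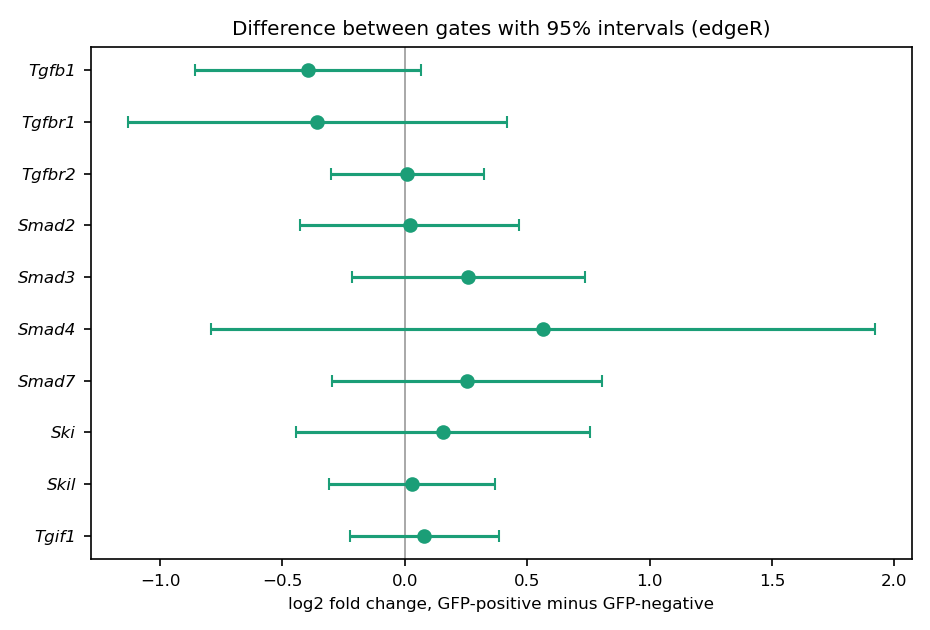
Log2 fold change of each gene (horizontal axis, GFP-positive minus GFP-negative) with its 95% interval from edgeR's standard error. Each interval includes 0; the narrowest are those of Tgif1, Tgfbr2 and Skil, and the widest, from -0.79 to 1.92, is that of Smad4.

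The intervals differed in what they can exclude. For Tgif1, Tgfbr2 and Skil, each on at least 814 counts per library, the 95% intervals lay within folds of 0.806 to 1.30, so they exclude a change of 1.5-fold in either direction. For Smad2 the interval of 0.743 to 1.38 excludes it too. These exclusions hold only for the edgeR fit with all 6 libraries, GFP-positive replicate 3 included. Without that replicate Smad2 was at 0.14 ± 0.22 (log2 fold change, SE). In the filtered TPM fit with a pseudocount of 1, Skil was at -0.041 ± 0.25 and Smad2 at -0.042 ± 0.25 (SE). Intervals were not computed for those fits, so the exclusion is not claimed there. Tgfb1 had an interval of 0.552 to 1.05 and Tgfbr1 of 0.457 to 1.33, which leave room for a lower level in GFP-positive cells. Smad3 had 0.861 to 1.66, Smad7 0.814 to 1.75 and Ski 0.735 to 1.69, which leave room for a higher level. A p that misses the threshold does not show that the gates had the same level of these 5 genes or of Smad4.

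**Figure D3:**
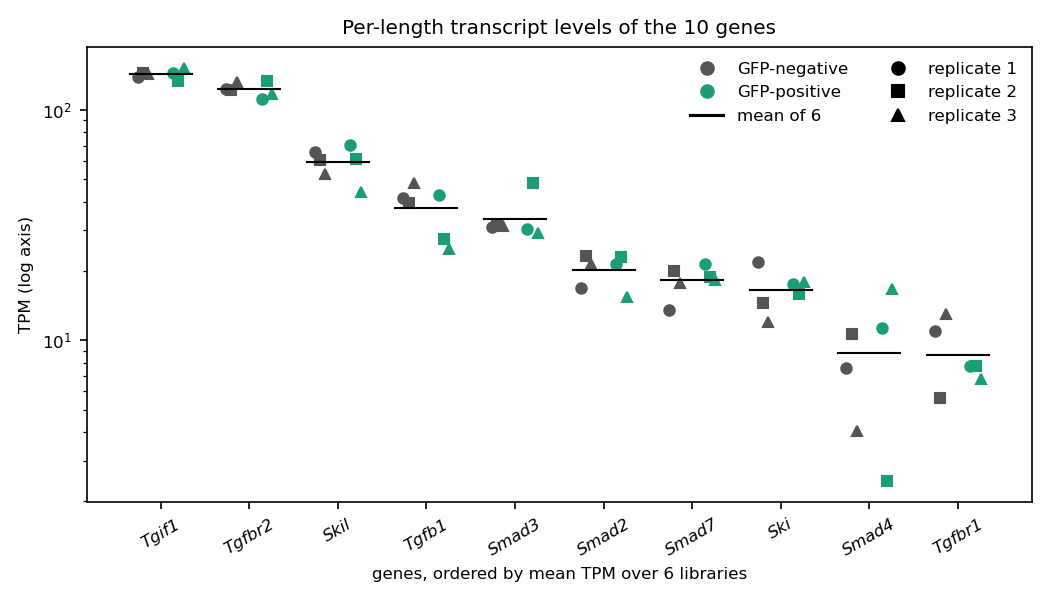
TPM of the 10 genes on a log axis, ordered by the mean over 6 libraries (black lines); points are libraries, coloured by gate and shaped by replicate number. Tgif1, at 142.9 TPM, is followed by Tgfbr2 and Skil, and Smad4 and Tgfbr1, at 8.78 and 8.63 TPM, close the order.

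By mean TPM over the 6 libraries the order was Tgif1 (142.9 ± 6.49, SD, n = 6), Tgfbr2 (123.7 ± 8.52), Skil (59.1 ± 9.47), Tgfb1 (37.4 ± 9.18), Smad3 (33.5 ± 7.11), Smad2 (20.2 ± 3.27), Smad7 (18.3 ± 2.69), Ski (16.6 ± 3.37), Smad4 (8.78 ± 5.22) and Tgfbr1 (8.63 ± 2.76). Tgif1 and Tgfbr2 lay at the 90.3rd and 88.9th percentiles of the tested genes by mean TPM and Tgfbr1 at the 29.7th. The gaps between Tgfb1 and Smad3, Smad2 and Smad7, Smad7 and Ski, and Smad4 and Tgfbr1 were smaller than the larger SD of each pair, so these neighbours did not differ beyond their spread. Each of the other 5 steps exceeded the larger SD of its pair. In 6 of 6 libraries Tgfbr2 was above Skil, Skil above Tgfb1, Smad3 above Smad2 and Ski above Smad4. The rank by group mean was the same in both gates for 6 genes; Tgfb1 changed places with Smad3, which ranked above it in GFP-positive cells, and Smad4 and Tgfbr1 changed places at the end of the order.

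**Figure D4:**
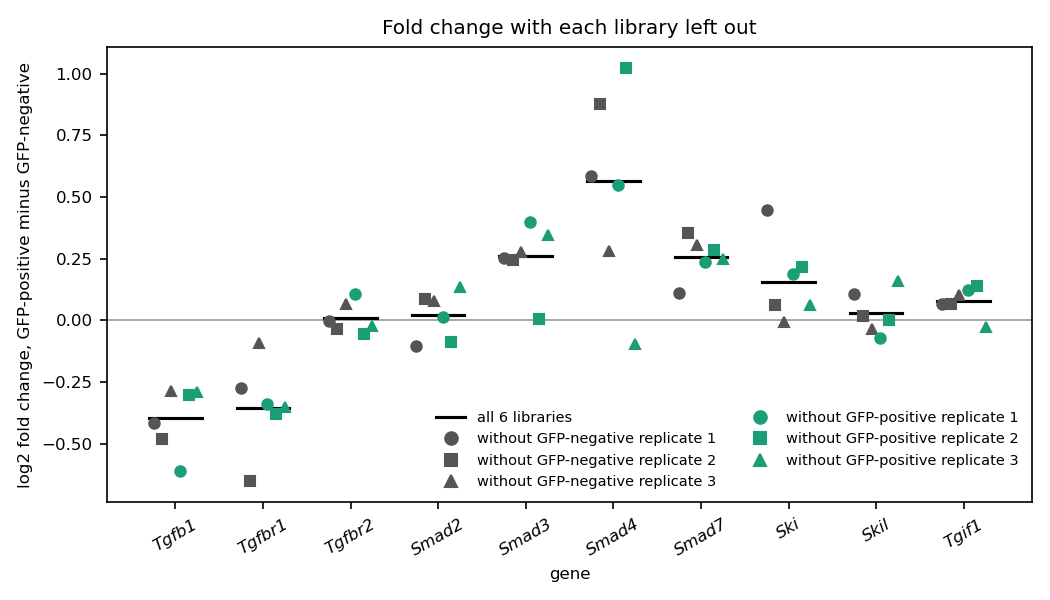
Log2 fold change of each gene (vertical axis, GFP-positive minus GFP-negative) with all 6 libraries (black lines) and with each library left out (points). Tgfb1 and Tgfbr1 stay below 0 and Smad3 and Smad7 above it, while Smad4 runs from -0.10 to 1.02.

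With each library left out in turn, the log2 fold changes of Tgfb1 stayed between -0.61 and -0.29, those of Tgfbr1 between -0.65 and -0.09, those of Smad7 between 0.11 and 0.35 and those of Smad3 between 0.0060 and 0.40. The other 6 genes took both signs. Over 170 fits of the 10 genes, 17 settings each, 0 reached an adjusted p of 0.05 by edgeR, DESeq2 or limma. Some of these settings called no gene of the whole table.

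The 3 tested genes whose levels moved most like those of Tgfb1, out of 8287 with a mean of at least 10 CPM, were Gm2808, Tgds, which encodes a sugar nucleotide dehydratase-like protein, and Helz2, which encodes a helicase. Likeness was the mean absolute difference in log2 CPM over the 6 libraries after centring each gene on its mean. It was 0.04 for Gm2808 and Tgds and 0.05 for Helz2, against a median of 0.34 over all candidates. The 3 genes were picked as the smallest differences, so values below the median and a pattern like that of Tgfb1 follow from the choice. Each lay inside its GFP-negative range in GFP-positive replicate 1 and below it in replicates 2 and 3: Tgds had 31.6, 29.6 and 38.8 CPM among GFP-negative and 32.4, 23.0 and 23.8 CPM in GFP-positive libraries. None of the 3 was called (edgeR adjusted p = 0.72, 0.724 and 0.724).

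Other genes of the pathway were taken from 7 lists of ligands, receptors, other SMADs, ubiquitin ligases and phosphatases, nuclear cofactors and targets in T cells, with 101 genes in all, of which 72 were tested. By edgeR's quasi-likelihood test 0 passed an adjusted p of 0.05 in either direction, against 0.108% of all tested genes. Of the 72, 21 had an unadjusted p below 0.05 by edgeR (background 10.3%) and 26 had groups that did not overlap (background 16.0%). DESeq2 called 5 of the 76 list genes that it tested, against 1.33% of all genes it tested. These were Nt5e and S1pr1, higher, and Foxp3, Ifng and Klrg1, lower in GFP-positive cells. With limma-voom 0 of 72 were called.

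**Figure D5:**
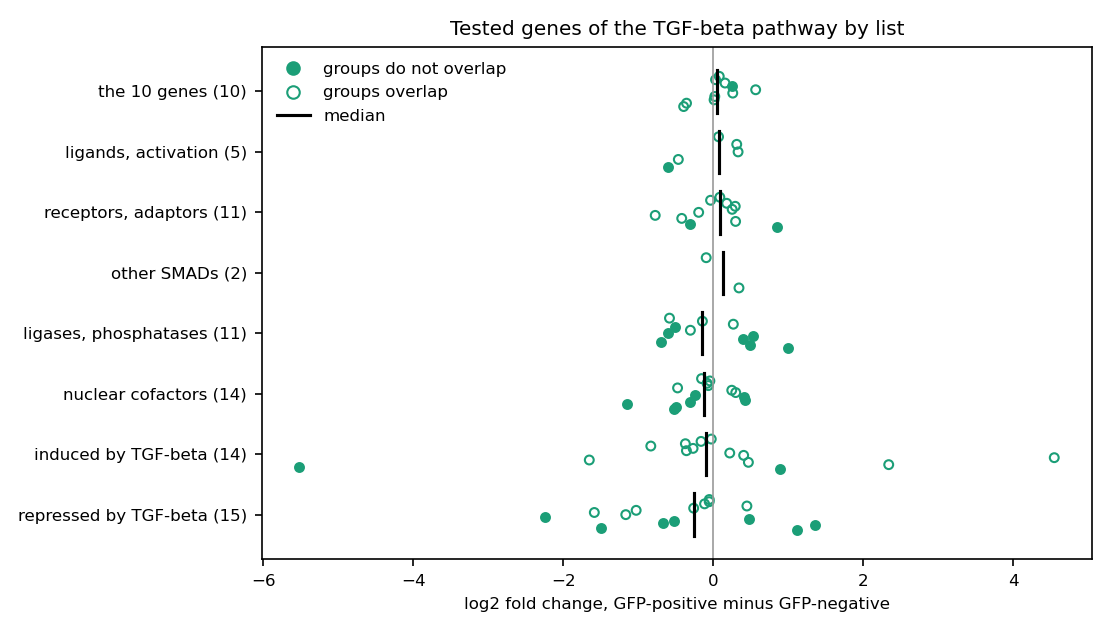
Log2 fold change (horizontal axis, GFP-positive minus GFP-negative) of the tested genes of each list, with the number tested in brackets and the median as a black line; filled points are genes whose CPM values do not overlap between the gates. The medians lie between -0.26 and 0.12, and the point farthest to the left is Foxp3, which had 0 counts in 2 GFP-positive libraries.

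Tgfb1 was the only TGF-beta ligand gene expressed at more than a few CPM. Tgfb2 had 0 counts in 5 libraries and 0.430 CPM in GFP-positive replicate 3, and Tgfb3 had 0 to 3.07 CPM. Of the 17 genes of ligands and activation, 5 were tested, 3 with a positive and 2 with a negative log2 fold change. By edgeR 0 were called and 1 had an unadjusted p below 0.05 (background 10.3%). Furin, the protease that cleaves the TGF-beta precursor, stood at 680.5, 702.2 and 1144.5 CPM among GFP-negative and 425.7, 579.6 and 652.6 CPM in GFP-positive libraries, so the groups did not overlap (log2 fold change -0.61 ± 0.22 SE, edgeR adjusted p = 0.379). Itgav and Itgb1, chains of integrins that can activate latent TGF-beta, had log2 fold changes of -0.47 and 0.33, and Nrros, which tethers latent TGF-beta on myeloid cells, had 0.31 (edgeR adjusted p = 0.653, 0.667 and 0.712). Lrrc32, which encodes the latent TGF-beta tether GARP of regulatory T cells, had 1.74, 14.1 and 0.658 CPM in GFP-negative libraries and 0, 0 and 2.30 CPM in GFP-positive ones.

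Of 20 other receptors and adaptors 11 were tested, 6 positive and 5 negative. By edgeR 0 were called and 1 had an unadjusted p below 0.05 (background 10.3%). Acvr2a, a type II receptor for activins, had 17.8, 25.5 and 20.6 CPM among GFP-negative and 32.6, 54.0 and 29.3 CPM in GFP-positive libraries, without overlap (log2 fold change 0.85 ± 0.30 SE, edgeR adjusted p = 0.334). Strap, an adaptor that helps SMAD7 bind the receptor, was at -0.31 ± 0.15 on the log2 fold change scale (edgeR adjusted p = 0.487). Tab2 and Tab1, which link the kinase TAK1 to receptors, had 0.30 and -0.42 (edgeR adjusted p = 0.75 and 0.818), and -0.053 and -0.27 without GFP-positive replicate 3, where Tab2 had its highest value, 128.4 CPM. Among receptors of activins and BMPs, Acvr2b, Acvr1c and Bmpr1b had 0 counts in all 6 libraries, while Bambi, Bmpr1a and Bmpr2 were tested, at 1.32 to 13.8, 0 to 9.50 and 0.2299 to 3.51 CPM. Of the 4 other SMADs Smad6 had 0 counts in all libraries. Smad5 and Smad1, the transducers of BMP signals, were tested, with log2 fold changes of 0.34 and -0.095 (edgeR adjusted p = 0.802 and 0.978). Without GFP-positive replicate 3 these were 0.53 and -0.45. A count of 0 allows up to 0.430 to 0.690 CPM in a library, for counting error only.

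Among 12 genes of ubiquitin ligases, phosphatases and membrane inhibitors of SMADs, 11 were tested, 5 positive and 6 negative. By edgeR 0 were called, 5 had an unadjusted p below 0.05 (10.3% of all tested genes did) and 7 did not overlap between the gates (16.0% of all). Wwp1, a ubiquitin ligase that acts with SMAD7 on TGFBR1, had 17.8, 18.4 and 14.3 CPM among GFP-negative and 36.0, 27.8 and 37.0 CPM in GFP-positive libraries (log2 fold change 0.998 ± 0.28 SE, edgeR adjusted p = 0.211). Ldlrad4, a membrane protein that keeps SMAD2 and SMAD3 from the receptor, had 61.1, 74.8 and 65.8 against 99.6, 95.9 and 86.6 CPM (0.48 ± 0.17, edgeR adjusted p = 0.339). Rnf111, which encodes the ligase Arkadia that degrades SMAD7, SKI and SKIL, had 86.6, 72.1 and 77.0 against 94.4, 103.0 and 112.0 CPM (0.39 ± 0.16, edgeR adjusted p = 0.433). In each of these 3 genes every GFP-positive library lay above every GFP-negative one. Trim33, a ligase and chromatin cofactor that binds SMAD2, SMAD3 and SMAD4, lay the other way, at 34.5, 30.5 and 32.9 against 17.3, 23.2 and 19.7 CPM (-0.70 ± 0.26, edgeR adjusted p = 0.379).

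Of 16 nuclear cofactors 14 were tested, 4 positive and 10 negative. By edgeR 0 were called, 4 had an unadjusted p below 0.05 (10.3% of all tested genes did) and 7 did not overlap (16.0% of all). Ncor1, Hdac1 and Ets1 were each lower in every GFP-positive library than in any GFP-negative one. Ncor1, a corepressor that SKI and SKIL recruit, had 199.5, 241.7 and 182.9 CPM among GFP-negative and 133.4, 148.3 and 150.7 CPM in GFP-positive libraries (log2 fold change -0.53 ± 0.15 SE, edgeR adjusted p = 0.217). Hdac1, a histone deacetylase of such complexes, had 229.1, 261.7 and 224.8 against 185.7, 180.0 and 141.4 CPM (-0.50 ± 0.15, edgeR adjusted p = 0.251). Ets1, a T cell transcription factor, had 835.0, 898.7 and 855.9 against 647.2, 759.6 and 686.5 CPM (-0.31 ± 0.14, edgeR adjusted p = 0.463). Crebbp and Ep300, named here after their values were seen, lay the other way without overlap. Crebbp had 47.1, 53.7 and 43.2 against 58.9, 63.7 and 69.7 CPM (0.42 ± 0.20, edgeR adjusted p = 0.512). Ep300 had 53.7, 49.6 and 37.3 against 55.6, 76.1 and 54.6 CPM (0.40 ± 0.23, edgeR adjusted p = 0.608).

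Of 17 genes known to be induced by TGF-beta in T cells 14 were tested, 6 positive and 8 negative. Their median log2 fold change was -0.10. By edgeR 0 were called, 3 of the 14 had an unadjusted p below 0.05 (10.3% of all tested genes did) and 2 did not overlap between the gates (16.0% of all). Nt5e, which encodes the ectoenzyme CD73, had 208.4, 163.0 and 196.3 CPM among GFP-negative and 434.3, 367.4 and 246.6 CPM in GFP-positive libraries (0.88 ± 0.20 SE, edgeR adjusted p = 0.118). Foxp3 had 0 counts in GFP-positive replicates 1 and 2 and 0.861 CPM in replicate 3, against 2.41 to 33.0 CPM in GFP-negative libraries (edgeR adjusted p = 0.18). Ahr, the aryl hydrocarbon receptor, was at 0.47 ± 0.24 on the log2 fold change scale (edgeR adjusted p = 0.553). Cd9, a tetraspanin, had 2.52 to 6.36 CPM in GFP-negative libraries and 9.35, 3.68 and 52.2 CPM in GFP-positive ones, and its log2 fold change of 2.34 became 0.61 without GFP-positive replicate 3. Itgae, which encodes CD103, and Tgfbi are named here after their values were seen. Itgae had 346.2, 350.6 and 188.6 CPM among GFP-negative and 348.3, 333.1 and 187.8 CPM among GFP-positive replicates 1 to 3 (log2 fold change -0.03 ± 0.31 SE, edgeR adjusted p = 0.988). Tgfbi, which macrophages also make, had 264.5 CPM in GFP-positive replicate 3 and 0 to 9.87 CPM in the other 5 libraries. Inhba, an activin subunit gene, likewise had 46.9 CPM in that library and at most 1.38 CPM elsewhere, beside its myeloid markers at 0.817% of counts; the part of other cell types in these values was not tested.

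Of 15 genes that TGF-beta represses in T cells all were tested, 4 positive and 11 negative. Their median log2 fold change was -0.26. By edgeR 0 were called, 7 of the 15 had an unadjusted p below 0.05 (10.3% of all tested genes did) and 7 did not overlap between the gates (16.0% of all). The 4 with the smallest p split evenly in direction. S1pr1, the tissue-exit receptor, and Il2 had log2 fold changes of 1.12 ± 0.22 and 1.35 ± 0.35 (SE; edgeR adjusted p = 0.107 and 0.17). Klrg1, a receptor of terminal effector cells, and Ifng, the Th1 cytokine, had -1.50 ± 0.35 and -0.67 ± 0.19 (SE; edgeR adjusted p = 0.127 and 0.212). Without GFP-positive replicate 3 edgeR called 3 target genes, Nt5e and S1pr1 higher and Gzma lower, where 0.370% of all tested genes were called.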

How the data were processed

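Bulk RNA-seq libraries of CD4 T cells from 2 sort gates, 3 each, were compared; groups come from the sample titles. The authors deposited raw counts per gene and TPM values. The submitters' processing notes name mm10 and the tools STAR 2.7.10b, fastp 0.23.3, deepTools 3.5.1 and SAMtools 1.17; the sources used here do not give their roles, the read counter or the annotation. Per the labels' protocols, cDNA was primed with oligo-dT and random hexamers, PCR-amplified and tagged by a transposase, without strand or molecular identifiers, so floors cover counting error only. Every column was matched to its sample.

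GENCODE M21 holds 54587 of the 55335 identifiers in the same version, the 10 genes included. No exon of another gene overlaps theirs, and none of their 100-base transcript stretches occurs in a transcript of another gene.

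The test was edgeR 4.0.16 (R 4.3.3): quasi-likelihood, robust, TMM factors, expression filter by group (minimum count 10), the gate as the only term, Benjamini-Hochberg over 11074 genes, threshold 0.05. Intervals are 95%, from the SE and the fit's degrees of freedom. DESeq2 1.42.0 and limma 3.58.1 (voom; also TPM on a log2 scale, pseudocount 1 or 0.1, for genes averaging 1 TPM or more, and pseudocount 1 unfiltered) were alternatives, with RLE factors, library size alone, other filters, a replicate block and leaving out each library. Log2 CPM for likeness used a prior count of 2. Ratios between genes were tested by exact permutation over libraries. The fitting code was checked on simulated counts.

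The 10 genes, the lists and the tests were chosen with earlier results of these data known. Named genes were the 10, up to 4 of each pathway list with the smallest unadjusted p, and the 3 genes most like the one of the 10 with the smallest p; 1 gene the rule takes is not reported here. Markers of other cell types were summed as a percent of counts. No 2 replicates were duplicates (smallest chi-square per degree of freedom 11.1).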

Additional observations from a re-analysis of the deposited data

How the results depend on the processing

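The absence of any call among the 10 genes held under all 16 alternatives, with adjusted p-values of 0.353 and above. Some alternatives called no gene of the whole table, so the absence there says nothing about the 10 in particular. These were the TPM fits with a pseudocount of 1 and those without GFP-negative replicate 3, GFP-positive replicate 1 or GFP-positive replicate 2. The count of calls over all genes was 12 and depended on the setting: 19 with library size alone, 373 with no filter, 157 by DESeq2, 5 by limma-voom, 81 with the replicate block, 0 with TPM and a pseudocount of 1, filtered or not (11 with 0.1), and 0 to 42 with a library left out. Calls among the other pathway genes went from 0 to 8 with no filter, 5 by DESeq2 and 5 with the replicate block (S1pr1, Ifng, Gzma, Gzmb and Ccna2), and 0 to 3 with a library left out. The 8 with no filter were Acvrl1, Cd9, Foxp3, Furin, Ifng, Klrg1, Nt5e and S1pr1. Of these only Acvrl1 and Cd9 were highest in GFP-positive replicate 3, at 10.8 and 52.2 CPM, against at most 1.56 and 9.35 CPM elsewhere. The number of the 10 genes with a positive log2 fold change, 8, was 5 in each TPM fit and 5 to 7 with a library left out. Their median was 0.033 with library size alone, -0.017 in the TPM fits with a pseudocount of 1, -0.018 with 0.1, and 0.0029 to 0.11 with a library left out.

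Genes near 0 changed sign. With library size alone Tgfbr2 was at -0.017 and Smad2 at -0.0014. In TPM fits with a pseudocount of 1, filtered or not, Tgfbr2 was at -0.060, Smad2 at -0.042 and Skil at -0.041, and with 0.1 they were at -0.060, -0.044 and -0.042. With a library left out the ranges were -0.056 to 0.11 for Tgfbr2, -0.10 to 0.14 for Smad2, -0.10 to 1.02 for Smad4, -0.0052 to 0.45 for Ski, -0.074 to 0.16 for Skil and -0.027 to 0.14 for Tgif1. Raw counts give the same log2 differences of ratios by construction, because gene length cancels between the gates, so that setting is no check. With a library left out these differences ranged from -0.61 to -0.06 for Tgfbr1 to Tgfbr2, 0.09 to 0.37 for Smad3 to Smad2 and -0.12 to 0.30 for Smad7 to Smad3. The ranges were -0.35 to 0.053 for Skil to Ski and -0.39 to 0.067 for Tgif1 to Ski. The cause of these changes was not tested.

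Libraries share only a replicate number: the correlations over genes of the deviations of same-numbered libraries from their group means were 0.104, 0.0971 and 0.104, and each library correlated best with its own number, a hint from the data and not from the design. With the block, log2 fold changes were -0.41 for Tgfb1 and 0.32 for Smad4, and none of the 10 genes changed its call. Smad4, on 14 to 168 counts, and Tgfbr1, on 54 to 135, reached the lowest counts of the 10 genes. The CV of Smad4 was above counting error in both gates (42.3% against 16.2% in GFP-negative and 75.8% against 17.3% in GFP-positive libraries). That of Tgfbr1 was above it in GFP-negative libraries (40.2% against 10.6%) and below it in GFP-positive ones (3.26% against 10.2%).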
